A study of Caenorhabditis elegans with 12 samples.

Results

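The numbered cuticle collagens of Caenorhabditis elegans were the genes whose WBcel235 name begins with col-, taken by name alone and without col-19. That adult collagen was listed here with the body-shape collagens. The rule gave 155 genes of the 46589 in the count tables, all of them protein coding. They were read in 12 RNA sequencing libraries of whole, synchronized day 1 worms, each from about 5000 worms grown on 3 plates. Every combination of strain and temperature had 1 library, so no combination had a replicate.

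The first 6 libraries came from worms grown at 22 °C and the other 6 from worms grown at 20 °C. At 22 °C the backgrounds were wild type (N2) and a mutant of ung-1, which encodes uracil-DNA glycosylase. At 20 °C they were wild type and a mutant of nth-1, which encodes the glycosylase that removes oxidised pyrimidines. Both enzymes act at the first step of base excision repair. Each background was read without tau, with the tau aggregate strain BR5270 and with the anti-aggregate strain BR5271. Both strains are known for a human tau fragment made in all neurons, prone to aggregate in BR5270 and altered to resist aggregation in BR5271, so neither transgene is meant to be active in the epidermis. The crosses are called aggregate or anti-aggregate ung-1 and nth-1 here. The mutants and their crosses were measured at 1 temperature each, and mutated gene and temperature cannot be told apart between them.

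Cuticle collagens are short secreted proteins built around Gly-X-Y repeats, which wind into triple helices and are cross-linked into the cuticle, the outer coat of the worm. They are made mainly by the epidermis and laid down under the old cuticle, and many are transcribed in a burst before each moult, different sets at larval and adult moults. The body-shape collagens such as rol-6, sqt-3 and dpy-7 belong to the same family under other names, and the type IV collagens emb-9 and let-2 form basement membranes instead. A col- name does not by itself place a protein in the cuticle: col-99 encodes a membrane-spanning collagen.

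Library totals ran from 15124127 to 35204808 counts. The ung-1 gene was at 11.9 to 14.5 CPM (counts per 1000000 counts of the library, scaled by TMM, the unit of all levels here) in the 3 ung-1 libraries and at 27.01 to 62.3 CPM in the others. The nth-1 gene was at 5.06 CPM in nth-1 and 5.08 CPM in aggregate nth-1, and at 22.96 to 29.8 CPM in the 9 libraries of other backgrounds. The library labelled anti-aggregate nth-1 held 11.4 CPM, between the mutant and wild-type levels, so it partly went against its label. Fitted counts of members by edgeR are given with and without it, while DESeq2 and limma voom counts and those of other gene lists use all 12 libraries. All worms were read whole, so fewer cells of a type and less RNA per cell cannot be told apart.

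The members are spread over all 6 chromosomes, with 41 on IV, 31 on V, 26 on X, 24 on II, 21 on I and 12 on III. The annotated proteins have a median of 304 residues, and the 10th and 90th percentiles were 285 and 371. The exceptions in length include col-99 with 735 residues in 18 exons, col-135 with 660 and col-76 with 499, against a median of 2 exons per member. Within 5 kb of another member lay 50 genes, in 21 runs, of which the longest holds col-167, col-168, col-169, col-170 and col-171 on X. Overlap with another annotated gene was found for 71 members, 54 of them with a protein-coding gene.

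Of the 155 members, 93 had a mean of at least 1 CPM over the 12 libraries, 50 of at least 10 and 29 of at least 100. The other 62 lay below 1 CPM on average, and none of them exceeded 4.46 CPM in any library. Among these 62, 4 had no count in any library (col-37, col-148, col-171 and col-185), and 18 reached 1 CPM in at least 1 library. The default filter on low counts kept 116 members for testing, 23 of them below a mean of 1 CPM, and left out 39. A member that passed only through the libraries where it is high had to differ, so counts over the 116 describe them and are not support. The same holds for counts, medians and correlations over the 93, whose mean includes the libraries where they are high.

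The family's summed level separated the libraries into a high and a low set. Summed over the 155 members, the level at 22 °C was 8464 CPM in the wild type, 13359 in ung-1, 23991 with aggregate and 8824 with anti-aggregate tau, 7459 in aggregate ung-1 and 9970 in anti-aggregate ung-1. In the 20 °C set it was 9135 CPM in the wild type, 26418 with aggregate and 7544 with anti-aggregate tau, 49432 in nth-1, 51740 in aggregate nth-1 and 13612 in the library labelled anti-aggregate nth-1. Thus 4 libraries stood above the other 8: both wild-type backgrounds with aggregate tau, nth-1, and aggregate nth-1. As a share of counts the family ran from 0.7% in aggregate ung-1 to 5.09% in aggregate nth-1.

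More members were detected in those 4 libraries as well. At 1 CPM or more stood 87 and 98 members with aggregate tau on wild type at 22 °C and at 20 °C, 101 in nth-1 and 105 in aggregate nth-1. The other 8 libraries held between 38 members, with anti-aggregate tau on wild type at 20 °C, and 58, with anti-aggregate tau on wild type at 22 °C. Among the 93 members with a mean of at least 1 CPM, 74 had their highest value in aggregate nth-1 and 10 in nth-1. The lowest value of the 93 fell in the wild type of 22 °C for 35 members, in wild type with anti-aggregate tau at 20 °C for 26 and in aggregate ung-1 for 17. Of the 62 members below that mean, 17 were highest in aggregate nth-1, 9 with aggregate tau on wild type at 20 °C and 8 in ung-1. Matching counts over all genes are not given here, so how far these are particular to the members cannot be read from them. All 4832 genes with a mean of 1 to 10 CPM also had higher values in such libraries. Their median log2 ratio was 1.05 and 1.32 for aggregate tau on wild type at 22 °C and 20 °C, and 1.53 for nth-1 over wild type without tau.

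**Figure D1:**
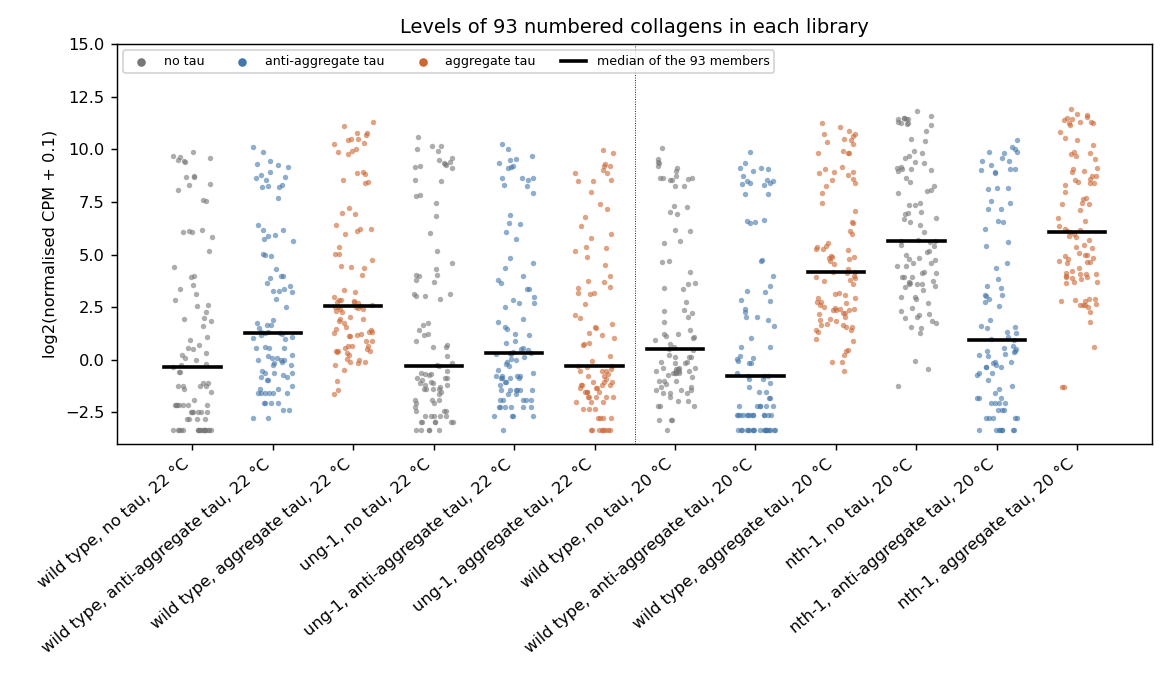
Levels of the 93 members with a mean of at least 1 CPM in each of 12 libraries, as log2(normalised CPM + 0.1), 1 point per member, coloured by tau state, with a black bar at the median. The medians of the 2 wild-type libraries with aggregate tau (5.78 and 17.9 CPM), of nth-1 (50.2 CPM) and of aggregate nth-1 (67.8 CPM) stand above those of the other 8 libraries, which lie between 0.488 and 2.32 CPM.

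Per kb of exon, the most abundant members over the 12 libraries were col-119 (mean 1826 CPM per kb), col-140 (1555), col-122 (1308), col-20 (1162), col-181 (1032) and col-124 (990). The gene col-119 (IV, 8978926 to 8979795, minus strand) was the most abundant member in every library except nth-1 and aggregate nth-1, where col-124 led. At 22 °C col-119 stood at 926 CPM in the wild type, 1532 in ung-1, 2526 with aggregate and 1112 with anti-aggregate tau, 1014 in aggregate ung-1 and 1225 in anti-aggregate ung-1. At 20 °C it stood at 1065 CPM in the wild type, 2402 with aggregate and 927 with anti-aggregate tau, 2542 in nth-1, 2422 in aggregate nth-1 and 1372 in the library labelled anti-aggregate nth-1. Its 4 highest libraries were those 4 that stood apart for the family, but its highest value was only 2.75 times its lowest.

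The spread of col-124 (IV, 10216451 to 10217617, plus strand) over the same libraries was wider. At 22 °C it had 70.5 CPM in the wild type, 376 in ung-1, 1412 with aggregate and 308 with anti-aggregate tau, 145 in aggregate ung-1 and 244 in anti-aggregate ung-1. In the 20 °C set it had 391 CPM in the wild type, 1677 with aggregate and 233 with anti-aggregate tau, 3656 in nth-1, 3816 in aggregate nth-1 and 943 in the library labelled anti-aggregate nth-1. It was high in the same 4 libraries as col-119, and its highest value was 54.2 times its lowest. The 10 most abundant members made up 78.7% of the family's CPM in the wild type of 22 °C and 56.2% in aggregate nth-1.

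The ratios between libraries were furthest from 0 among members of middle abundance. In nth-1 over wild type at 20 °C, 1 library against 1, the log2 ratio of CPM (prior count 2) had a median of 2.07 over the 29 members with a mean of at least 100 CPM. Over the 21 members between 10 and 100 CPM the median log2 ratio was 6.29, and over the 43 between 1 and 10 CPM it was 4.06. For aggregate tau over no tau on wild type the medians in the same order were 2.43, 3.64 and 2.76 at 22 °C and 1.61, 3.53 and 2.9 at 20 °C. The middle class had the highest median in each of these 3 pairs. The classes were cut on the mean over all 12 libraries, which includes the libraries of these ratios. A member near 0 in the wild type can enter the middle class only through libraries where it is high. Class and ratio are therefore not independent, and the order of the medians is a description only.

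The furthest single members in nth-1 over wild type were col-146 (log2 ratio 10.84), col-7 (9.54), col-39 (8.34), col-13 (8.19), col-145 (7.91) and col-12 (7.89). The gene col-146 (V, 9629943 to 9631012, plus strand) had no count in the wild type of 22 °C, in ung-1 or with anti-aggregate tau on wild type at 20 °C. It stood at 5.6 CPM with aggregate tau and 3.29 CPM with anti-aggregate tau on wild type at 22 °C, and at 0.194 and 0.165 CPM in ung-1 with aggregate and anti-aggregate tau. At 20 °C it stood at 0.0394 CPM in the wild type, 37.3 with aggregate tau, 239.6 in nth-1, 344 in aggregate nth-1 and 1.07 in the library labelled anti-aggregate nth-1. The ratio of such a gene depends on the prior count, and it is given as a description of 2 libraries.

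Among the members chosen for known roles, col-7 (I, 7401132 to 7402761, plus strand), an adult-stage collagen, had at 22 °C 0.0821 CPM in the wild type, 0.139 in ung-1, 5.52 with aggregate and 3.02 with anti-aggregate tau, 0.388 in aggregate ung-1 and 0.276 in anti-aggregate ung-1. In the 20 °C set it had 0.315 CPM in the wild type, 37.7 with aggregate and 0.122 with anti-aggregate tau, 302 in nth-1, 376 in aggregate nth-1 and 2.37 in the library labelled anti-aggregate nth-1. Its neighbour col-62, which starts within 5 kb on the other strand, ranged from 0.0609 to 335 CPM and was highest in the same libraries. Of the collagens known to be raised in long-lived insulin receptor mutants, col-10 ranged from 0.975 CPM (median 2.55) to 81.5 CPM, col-13 from 0.0609 (median 0.975) to 248 CPM and col-120 from 0.14 (median 0.429) to 12.7 CPM, each highest in aggregate nth-1. The gene col-17 reached 6.07 CPM and had no count in 3 libraries. The membrane collagen gene col-99 (IV, 137974 to 147919, minus strand) ranged from 0.418 CPM (median 1.05) to 6.76 CPM, again highest in aggregate nth-1, and its level followed that of the cuticle collagens (Pearson r of log2 CPM, prior count 2, with the median of the other members 0.907 over 12 libraries).

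How closely members follow each other was described by that correlation, for the 93 members with a mean of at least 1 CPM. It had a median of 0.939, and 71 of 93 members were above 0.9. All points share the same 12 libraries, their scaling and the 4 libraries that stand apart, so the values describe these libraries only. The members most like the family were col-161 (r = 0.993), col-145 (0.992), col-13 (0.991), col-168 (0.989) and col-125 (0.988). Between pairs of members the closest were col-42 and col-103 (0.9994), on different chromosomes. The levels of col-42 and col-103 were within the same range, 39.1 to 548 CPM and 41.3 to 548 CPM, and how reads that match both were assigned is not given in the sources used here.

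**Figure D2:**
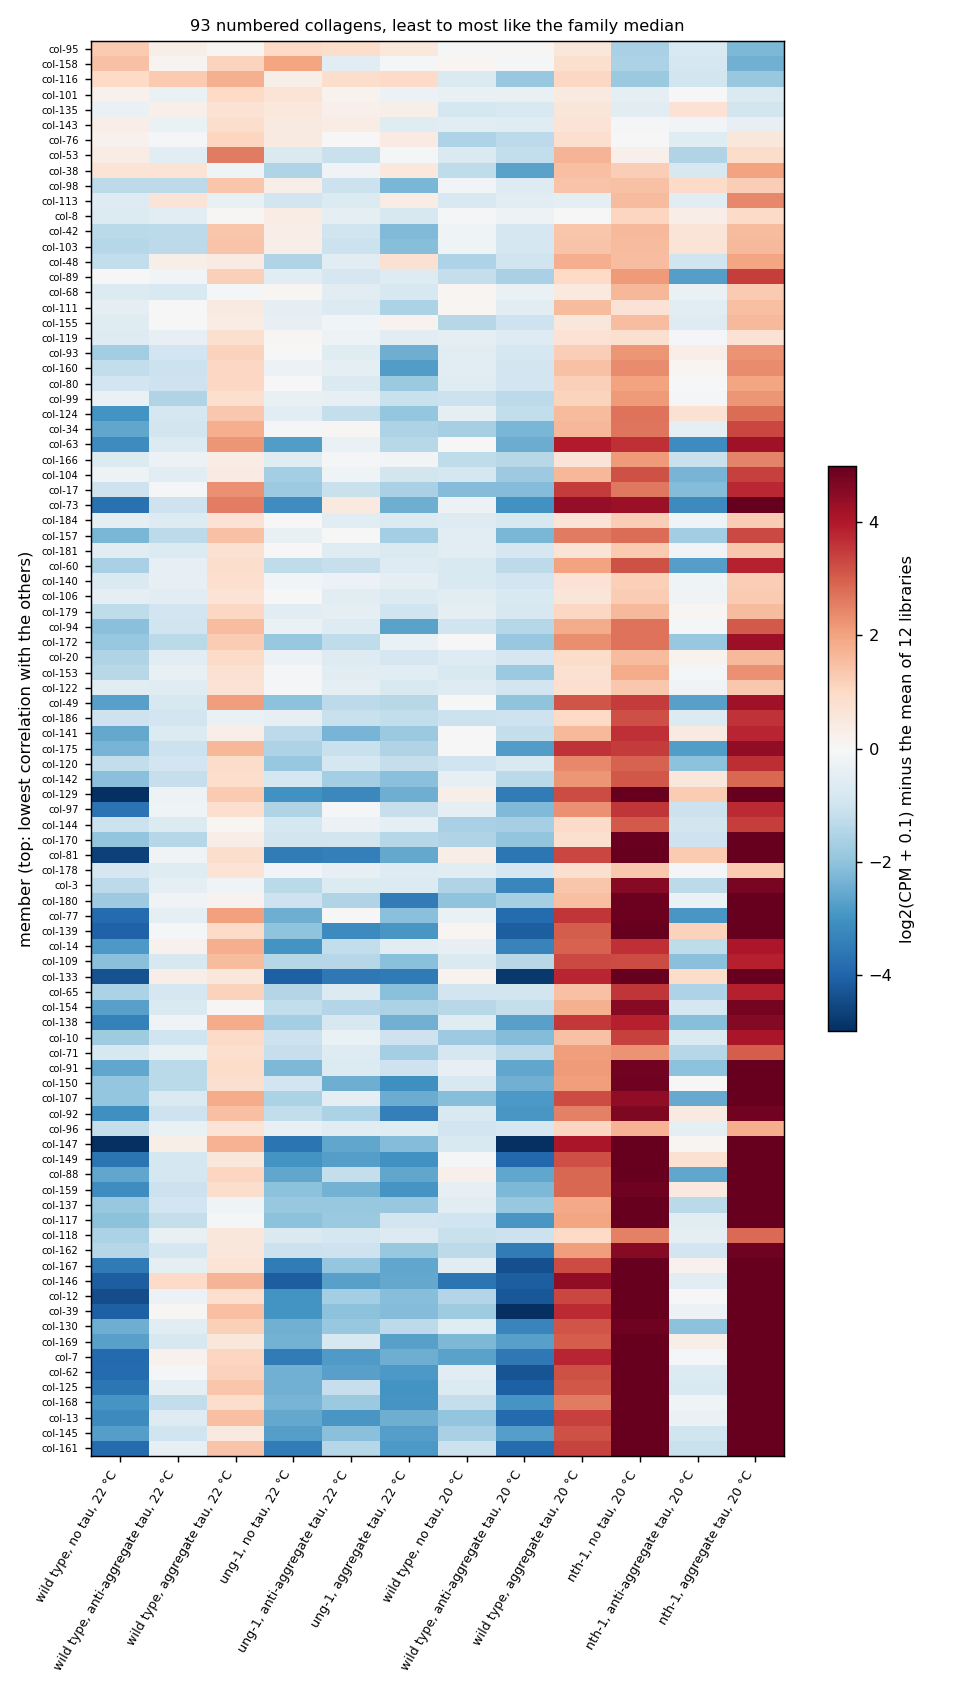
Each of the 93 members (rows, ordered from the lowest correlation with the other members at the top) in 12 libraries (columns), as log2(CPM + 0.1) minus the member's mean over the libraries, with colours limited at 5. Most rows are red in nth-1, aggregate nth-1 and the wild-type libraries with aggregate tau, while col-95, col-158 and col-116 are blue in the 2 nth-1 libraries.

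Against the family went 5 members with a correlation below 0: col-95 (r = -0.752), col-158 (-0.583), col-116 (-0.323), col-101 (-0.221) and col-135 (-0.184). The next were col-143 (0.138), col-76 (0.418), col-53 (0.572), col-38 (0.731) and col-98 (0.732). Scaling by other size factors, by total counts, or by TMM factors computed without the members left the same 5 below 0. Without the library labelled anti-aggregate nth-1 the same 5 were below 0, with col-95 at -0.801.

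The position of these members rested on nth-1 and aggregate nth-1. Over the 10 libraries without those, a reading added after the data were seen, only col-95 of the 93 members had a correlation below 0 (r = -0.183), and col-158 was at 0.072. In the same 10 libraries col-116 was at 0.438, col-101 at 0.455, col-135 at 0.517 and col-143 at 0.559, against a median of 0.865 over the 93 members.

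The gene col-95 (III, 11703994 to 11705091, plus strand, 309 residues, overlapping no other annotated gene) was one of the abundant members. At 22 °C it stood at 793 CPM in the wild type, 654 in ung-1, 345 with aggregate and 401 with anti-aggregate tau, 465 in aggregate ung-1 and 588 in anti-aggregate ung-1. At 20 °C it stood at 309 CPM in the wild type, 479 with aggregate and 337 with anti-aggregate tau, 105 in nth-1, 67.8 in aggregate nth-1 and 188 in the library labelled anti-aggregate nth-1. The nth-1 and aggregate nth-1 libraries were its 2 lowest, the library labelled anti-aggregate nth-1 was next, and all 3 lay below the wild-type libraries of 20 °C. At 22 °C the wild type without tau was the highest. The 95% exact Poisson intervals, which cover counting error only, ran from 100.3 to 109 CPM in nth-1 and from 302 to 316 CPM in the wild type of 20 °C. At a distance of 561 bases on the other strand, col-96 (III, 11705652 to 11706765, 289 residues) followed the family (r = 0.966). It stood at 10.4 CPM in the wild type of 20 °C, 66.3 in nth-1 and 69.9 in aggregate nth-1, so these neighbours went opposite ways.

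The gene col-158 (V, 11829582 to 11831219, plus strand) had little signal throughout. At 22 °C it had 5.91 CPM in the wild type, 8.52 in ung-1, 4.68 with aggregate and 2.32 with anti-aggregate tau, 1.94 in aggregate ung-1 and 1.38 in anti-aggregate ung-1. In the 20 °C set it had 2.21 CPM in the wild type, 3.66 with aggregate and 1.95 with anti-aggregate tau, 0.632 in nth-1, 0.31 in aggregate nth-1 and 1.12 in the library labelled anti-aggregate nth-1. As for col-95, aggregate nth-1 and nth-1 were its 2 lowest libraries, with the library labelled anti-aggregate nth-1 next. It overlaps nphp-4 on the opposite strand. The gene col-116 (IV, 8355906 to 8357919, plus strand) ranged from 0.305 CPM (median 2.23) to 5.16 CPM. Its highest value was with aggregate tau on wild type at 22 °C, and nth-1 (0.316 CPM) and aggregate nth-1 (0.31 CPM) were among its 3 lowest. It lies over F17E9.2 on the same strand, whose level followed it (r = 0.933 over 12 libraries), and the counts of the 2 genes may share reads.

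The abundant col-101 (IV, 325435 to 327020, minus strand) went with the family for aggregate tau on wild type and not for nth-1. At 22 °C it stood at 824 CPM in the wild type, 1129 in ung-1, 1418 with aggregate and 569 with anti-aggregate tau, 583 in aggregate ung-1 and 807 in anti-aggregate ung-1. At 20 °C it stood at 551 CPM in the wild type, 972 with aggregate and 548 with anti-aggregate tau, 518 in nth-1, 424 in aggregate nth-1 and 694 in the library labelled anti-aggregate nth-1. It overlaps drl-1 on the opposite strand, which stood at 67.1 and 46.8 CPM with aggregate tau on wild type and at 5.61 to 12.6 CPM in the other 10 libraries. Whether drl-1 reads enter the col-101 count was not tested.

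The long col-135 (IV, 15129655 to 15131797, minus strand) ranged from 24.1 CPM in aggregate nth-1 (median 53.98) to 74.5 CPM in the library labelled anti-aggregate nth-1. With aggregate tau on wild type it stood at 74.1 and 68.3 CPM against 35.8 and 24.7 CPM in the matching wild types, and in nth-1 at 31.6 CPM. The gene col-143 (V, 6835635 to 6836704, plus strand) was highest with aggregate tau on wild type, with 1036 and 895 CPM there, 695 and 378 CPM in the matching wild types, 532 in nth-1 and 422 in aggregate nth-1. Its neighbours on V, col-141 (r = 0.938) and col-142 (0.941), followed the family. The gene col-142 had 50.4 CPM in the wild type of 20 °C, 573 CPM in nth-1 and 491 CPM in aggregate nth-1.

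**Figure D3:**
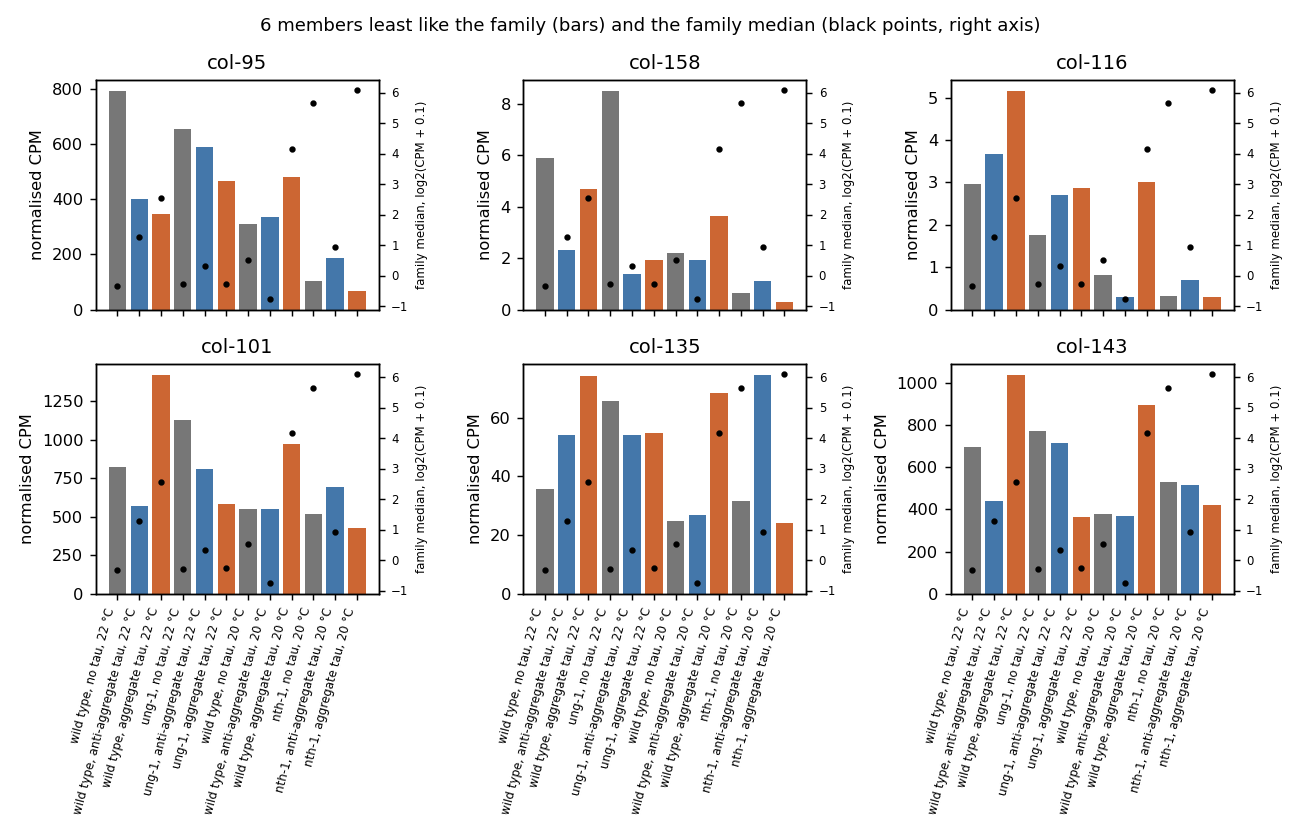
Normalised CPM of the 6 members least like the family (bars, left axes from 0) in 12 libraries, coloured by tau state (grey none, blue anti-aggregate, orange aggregate), with the family median as black points on a log2(CPM + 0.1) scale (right axes). The family median is highest in nth-1 and aggregate nth-1, where col-95 stands at 105 and 67.8 CPM, its 2 lowest values.

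Aggregate tau on wild-type backgrounds was read first in single libraries and then in the fit. At 22 °C 79 of the 93 members were at least 2-fold higher with aggregate tau and 1 was 2-fold lower, against 27.3% and 1.98% of the 12283 genes whose mean reached 1 CPM. The median log2 ratio was 2.74 (quartiles 1.29 and 4.26). The 3 members below 0 were col-95 (-1.2), col-38 (-0.87) and col-158 (-0.33). At 20 °C 87 of 93 were at least 2-fold higher and 0 lower, against 33.2% and 1.88% of genes, with a median of 2.76, and the lowest member was col-8 (0.14). Thus col-95 was lower with aggregate tau at 22 °C and at a log2 ratio of 0.63 at 20 °C.

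The fit that let the tau effect differ between wild-type and glycosylase-mutant backgrounds (4 residual degrees of freedom) put no member past an adjusted p of 0.05 for aggregate tau over no tau on wild-type backgrounds, where 1.51% of the 15245 genes tested passed. Of the 116 members, 55 had an unadjusted p under 0.05, all of them higher, against 18.4% of genes that were higher by that rule. Their median log2 fold change was 3.13, with 113 positive, beside 0.46 for all genes. The smallest p belonged to the abundant members col-119 (1.31, SE 0.27, edgeR quasi-likelihood adjusted p = 0.0743), col-20 (1.94, SE 0.43, adjusted p = 0.0857) and col-140 (1.53, SE 0.36, adjusted p = 0.0917). DESeq2 called 41 members and limma voom 13, all higher, against 12.9% and 4.83% of genes higher by these tools. Without the library labelled anti-aggregate nth-1 81 members passed, all higher, against 19% of genes higher. The largest were col-146 (log2 fold change 9.53), col-131 (7.32), col-173 (7.19), col-58 (7.14), col-169 (6.72) and col-7 (6.51). On wild type without tau, col-131, col-173 and col-58 had no count, and col-169 had 0 and 1 at 22 °C and 20 °C. With aggregate tau there, the first 3 had only 11 and 24, 12 and 19, and 11 and 20 counts. Fold changes of such members are set by counts near 0. Without anti-aggregate ung-1 76 passed, all higher, against 19.3% of genes, so the count of 0 changed when either mutant anti-aggregate library was left out.

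On the glycosylase-mutant backgrounds the ratios of aggregate tau over no tau lay nearer to 0. In aggregate ung-1 over ung-1, 12 members were at least 2-fold higher and 18 lower, against 6.02% and 8.94% of genes, with a median log2 ratio of -0.37. In aggregate nth-1 over nth-1, 3 were higher and 0 lower, against 1.01% and 0.773% of genes, with a median of 0.3. The lowest members of the nth-1 pair were col-158 (-0.85), col-95 (-0.62) and col-135 (-0.39). In the fit 0 members passed, against 0.0% of genes, and 3 had an unadjusted p under 0.05, against 0.394% of genes: col-143 (-0.70, SE 0.25), col-101 (-0.64, SE 0.25) and col-98 (-1.34, SE 0.54), each with an edgeR quasi-likelihood adjusted p of 1. The members' median was 0.2, with 69 of 116 positive. Leaving out the library labelled anti-aggregate nth-1 gave 6 with an unadjusted p under 0.05, all lower, against 1.52% of genes, and a median of 0.12.

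The difference between those backgrounds was tested as an interaction of glycosylase loss and aggregate tau. No member passed, against 0.0131% of genes, and 27 had an unadjusted p under 0.05, all negative, against 8.8% of genes that were negative by that rule. The median log2 difference was -3, with 2 of 116 positive, beside -0.33 for all genes. The smallest p belonged to col-98 (-3.47, SE 0.75, edgeR quasi-likelihood adjusted p = 0.254), col-143 (-1.59, SE 0.35, adjusted p = 0.254) and col-119 (-1.61, SE 0.38, adjusted p = 0.264). DESeq2 called 14 members, all negative, against 2.83% of genes, and limma voom 0. Without the library labelled anti-aggregate nth-1 3 members passed, all negative, against 0.907% of genes: col-179 (-2.13), col-178 (-1.72) and col-140 (-1.68). Without anti-aggregate ung-1 8 passed, all negative, against 1.26% of genes.

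Within the aggregate strain, the ung-1 pair and the nth-1 pair had medians of opposite sign. In aggregate ung-1 over the aggregate strain at 22 °C, 78 of 93 members were at least 2-fold lower and 0 higher, against 22.4% and 4.09% of genes, with a median of -2.56. In aggregate nth-1 over the aggregate strain at 20 °C, 57 were higher and 6 lower, against 17.6% and 10.8% of genes, with a median of 1.52. Those 6 were col-158 (-3.22), col-116 (-2.95), col-95 (-2.82), col-135 (-1.5), col-101 (-1.2) and col-143 (-1.08), the 6 members least like the family. The correlation that ranks them was computed over these libraries too, so the match is not independent. In the 22 °C pair 4 of 93 members were above 0, namely col-113 (0.73), col-38 (0.70), col-95 (0.43) and col-48 (0.34).

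The fitted comparison of glycosylase loss within the aggregate strain averages both pairs. Its smallest p belonged to col-143 (-1.28, SE 0.25, edgeR quasi-likelihood adjusted p = 0.0826), col-101 (-1.24, SE 0.25, adjusted p = 0.0911) and col-83 (-3.61, SE 0.99, adjusted p = 0.221). No member passed, against 0.984% of genes, and 17 had an unadjusted p under 0.05, 1 higher and 16 lower, against 3.0% and 7.37% of genes. Without the library labelled anti-aggregate nth-1, col-143 (-1.29, SE 0.24, edgeR quasi-likelihood adjusted p = 0.038) and col-101 (-1.23, SE 0.21, adjusted p = 0.0298) fell. They were 1.72% of the 116 members tested, against 2.87% of genes that fell. With all libraries these 2 members also passed by limma voom, which called 2 members lower (1.72%) against 1.91% of genes. DESeq2 called them too, with 3 members lower (3.06%) against 4.12% of genes. The share of members was below that of genes each time, so these are values of single genes and not of the family. The gene col-83 reached at most 0.971 CPM in any library and its values are near the limit of counting.

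In nth-1 over wild type at 20 °C most of the family had higher values. Without tau 85 of 93 members were at least 2-fold higher and 3 lower, against 35.3% and 14.9% of genes, with a median log2 ratio of 3.98 (quartiles 2.37 and 5.64). The members below 0 were col-158 (-1.67), col-95 (-1.56), col-116 (-1.17) and col-101 (-0.09). In the library labelled anti-aggregate nth-1 over its wild-type partner 46 were higher and 3 lower, against 13.4% and 2.43% of genes, with a median of 0.99. The additive fit of background and tau state, with 6 residual degrees of freedom, put 0 members past the threshold over the 3 tau states, against 0.0% of genes. At an unadjusted p under 0.05 stood 58 members, 55 higher and 3 lower, against 20.4% and 16.1% of genes, and the median log2 fold change was 2.22, with 105 of 116 positive. DESeq2 called 53 members, 52 higher and 1 lower, against 17.7% and 13.3% of genes. Limma voom called 12, 11 higher and 1 lower, against 3.36% and 5.73% of genes.

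The member with the smallest p in that comparison was col-95 (-1.74, SE 0.40, edgeR quasi-likelihood adjusted p = 0.0692), followed by col-117 (4.78, SE 1.34, adjusted p = 0.0715) and col-144 (3.12, SE 0.88, adjusted p = 0.0719). The gene col-117 had 0.276 CPM in the wild type of 20 °C, 27.2 in nth-1 and 33.5 in aggregate nth-1, and col-144 had 4.88, 127 and 168 CPM in the same libraries. Without the library labelled anti-aggregate nth-1 52 members rose, against 18.5% of genes, and 2 fell, against 16.4% of genes. The 2 that fell were col-95 (-2.26, SE 0.37, edgeR quasi-likelihood adjusted p = 0.00903) and col-158 (-2.99, SE 0.74, adjusted p = 0.0213). The largest rises were those of col-146 (7.42), col-7 (6.82), col-145 (6.497), col-39 (6.44), col-161 (6.44) and col-12 (6.33). The fall of col-95 also passed with total counts and with a stricter filter on low counts, both with all 12 libraries, where 8.06% and 8.89% of genes were called lower.

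**Figure D4:**
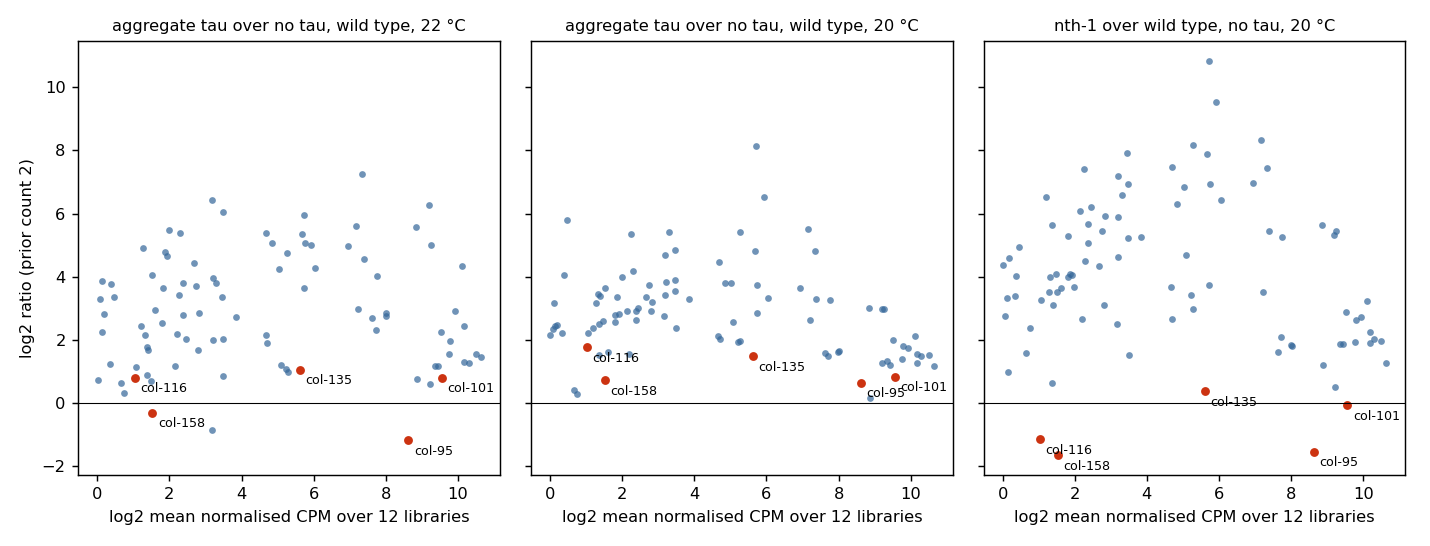
Log2 ratio between single libraries (prior count 2) against the log2 mean CPM over 12 libraries for 93 members, for aggregate tau over no tau on wild type at 22 °C and 20 °C and for nth-1 over wild type without tau; red points mark the 5 members with a correlation below 0. Most members lie above 0 in the 3 panels, with medians of 2.74, 2.76 and 3.98, and col-95, col-158, col-116 and col-101 lie below 0 in the third.

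In ung-1 over wild type at 22 °C the family median differed in sign between tau states, and with aggregate tau it was the -2.56 given above. Without tau 28 members were at least 2-fold higher and 3 lower, against 10.7% and 0.977% of genes, with a median log2 ratio of 0.66, and the lowest was col-38 (-2.19). With anti-aggregate tau 3 were higher and 24 lower, against 3.61% and 4.51% of genes, with a median of -0.19. In the fit over 3 tau states 0 members passed, against 0.0% of genes, and 2 had an unadjusted p under 0.05, against 1.05% of genes. This was again 2 without the library labelled anti-aggregate nth-1, against 1.58% of genes. The smallest p belonged to col-53 (-1.62, SE 0.64), col-151 (-5.77, SE 2.2) and col-133 (-4.85, SE 2.41), each with an edgeR quasi-likelihood adjusted p of 1. At 22 °C col-151 had 26 counts with aggregate and 4 with anti-aggregate tau on wild type. It had 0 in the wild type without tau and in the ung-1 libraries, so its value is set by counts near 0.

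The nth-1 result and the ung-1 result were not compared by a test, since each mutant was grown at its own temperature.

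For anti-aggregate tau over no tau the family median differed in sign between backgrounds, with 1 library on each side. On wild type 46 members were at least 2-fold higher and 2 lower at 22 °C, against 15.5% and 1.99% of genes, with a median of 0.98. At 20 °C 0 were higher and 39 lower, against 1.69% and 8.23% of genes, with a median of -0.65. On ung-1 18 were higher and 7 lower, against 3.62% and 3.12% of genes, with a median of 0.04. The library labelled anti-aggregate nth-1 over nth-1 had 1 higher and 81 lower, against 4.96% and 31.2% of genes, with a median of -4.35. The 5 members above 0 in that pair were those with a correlation below 0, col-135 (1.24), col-116 (0.95), col-95 (0.85), col-158 (0.74) and col-101 (0.42); the correlation was computed over these libraries too. Over the 4 backgrounds 0 members passed, against 0.0% of genes, and 2 had an unadjusted p under 0.05, against 1.66% of genes: col-174 (-5.53, SE 1.5) and col-127 (-5.03, SE 1.87), each with an edgeR quasi-likelihood adjusted p of 0.997. Both reached less than 2 CPM in every library. Leaving out the library labelled anti-aggregate nth-1 gave 0 past the threshold and again 2 unadjusted, against 0.92% of genes.

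Over the 4 backgrounds together, aggregate tau over no tau put 0 members past the threshold, against 0.0% of genes, and 5 had an unadjusted p under 0.05, all higher, against 6.64% of genes higher by that rule. The median log2 fold change was 1.44, with 107 of 116 positive. Without the library labelled anti-aggregate nth-1 none passed by edgeR, 26 had an unadjusted p under 0.05, all higher, against 11.1% of genes higher, and the median was 1.59. The smallest p belonged to col-53 (1.68, SE 0.54), col-79 (2.54, SE 0.91) and col-76 (0.97, SE 0.38), each with an edgeR quasi-likelihood adjusted p of 0.363. The gene col-53 (I, 5644729 to 5646370, plus strand) had 4.81 and 2.54 CPM with aggregate tau on wild type, 0.679 in aggregate ung-1, 1.43 in aggregate nth-1 and 0.186 to 0.944 CPM in the 8 libraries of other tau states. All 4 aggregate libraries were above their own background without tau in CPM, but the counts were low. On wild type they were 109 against 23 at 22 °C and 43 against 10 at 20 °C. On the mutants they were 14 against 14 in ung-1 and 23 against 19 in nth-1, so a rise there rests on few reads. DESeq2 and limma voom called 0 members in this comparison, in that of anti-aggregate tau with no tau, in ung-1 over wild type, in aggregate tau on mutant backgrounds and in temperature.

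For aggregate over anti-aggregate tau 0 members passed, against 0.0% of genes, and 50 had an unadjusted p under 0.05, all higher, against 16.6% of genes higher by that rule. The median was 2.35, with 113 of 116 positive. The 50 became 16 without the library labelled anti-aggregate nth-1, all higher, against 7.94% of genes higher, and the median became 1.67. DESeq2 called 21 members, all higher, against 8.03% of genes, and limma voom 0. The smallest p belonged to col-53 (2.8, SE 0.57), col-174 (6.79, SE 1.48) and col-172 (5.53, SE 1.61), each with an edgeR quasi-likelihood adjusted p of 0.137. This comparison uses the same aggregate libraries as those with no tau, and its values are not a separate measurement of them.

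Temperature was read on wild type alone. At 22 °C over 20 °C without tau 8 members were at least 2-fold higher and 44 lower, against 8.25% and 7.73% of genes, with a median of -0.86. With aggregate tau 0 were higher and 53 lower, against 2.69% and 3.49% of genes, with a median of -1.17. With anti-aggregate tau 53 were higher and 0 lower, against 24.8% and 1.75% of genes, with a median of 1.16. The fit over 3 tau states put 0 members past the threshold, against 0.0% of genes, and 2 had an unadjusted p under 0.05, against 7.52% of genes. This was 1 without the library labelled anti-aggregate nth-1, against 10.9% of genes. The smallest p belonged to col-116 (1.68, SE 0.7, edgeR quasi-likelihood adjusted p = 0.65), col-76 (0.97, SE 0.43, adjusted p = 0.658) and col-110 (-2.32, SE 1.06, adjusted p = 0.658). The libraries of the 2 temperatures are also the 2 sets of libraries, and temperature and set cannot be told apart.

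Other genes of collagen making and of the cuticle were read from lists chosen with earlier results known. The 21 body-shape collagens, with col-19 among them, summed to 1786 and 1794 CPM with aggregate tau on wild type, 2361 in nth-1 and 2553 in aggregate nth-1, and to 225 to 732 CPM in the other 8 libraries. That sum is mostly col-19, which made up 90.2% to 97.5% of it in each library. The other 20 genes summed to 76.96 and 175 CPM, 126 CPM and 179 CPM in those 4 libraries and to 13.6 to 24.4 CPM in the other 8. The 35 cuticlins, which form other layers of the cuticle, summed to 33.2 and 40.97 CPM, 61.6 CPM and 71.3 CPM in the same 4 libraries and to 13.4 to 23.5 CPM in the others. The sum of the 17 genes of collagen making, such as the prolyl hydroxylase subunit gene dpy-18 and the protein disulfide isomerase gene pdi-2, stayed between 1412 and 1833 CPM in all 12 libraries. The aggregate libraries on wild type (1511 and 1509 CPM) were inside the range of the other 8. Of that sum pdi-2 made up 18.8% to 36.5%. Gene by gene, 13 of 17 were positive in the fit for aggregate tau on wild type (median log2 fold change 0.96) and 13 for nth-1 over wild type (0.74). By edgeR 0 genes of these 3 lists passed in the 10 fitted comparisons. At an unadjusted p under 0.05 for aggregate tau on wild type stood 10 of 20 tested body-shape collagens higher and 1 lower, 8 of 17 collagen-making genes higher and 3 lower, and 2 of 20 cuticlins higher and 1 lower, against 18.4% of all genes higher and 15.1% lower. For nth-1 over wild type these counts were 2 and 1, 6 and 2, and 3 and 0, against 20.4% and 16.1% of all genes. The shares of higher cuticlins in both comparisons, and of higher body-shape collagens in nth-1, lay below those of all genes. The shares of higher collagen-making genes in both comparisons, and of higher body-shape collagens with aggregate tau, lay above them. Of 21 tested moulting genes 1 passed in these fits, the lipoprotein receptor gene lrp-1, which rose with aggregate tau on wild type, where 1.51% of all genes passed.

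Some lists of other tissues had their highest sums in the 4 libraries where the collagens were high, and others did not. The 4 basement membrane and other collagens emb-9, let-2, cle-1 and mec-5 summed to 912 and 1029 CPM with aggregate tau on wild type, 2500 in nth-1 and 2519 in aggregate nth-1, and to 234 to 672 CPM elsewhere. The 12 muscle genes summed to 3607 and 4268 CPM, 10760 CPM and 10990 CPM in the same libraries, and to 1067 to 2577 CPM elsewhere, with 0 genes without a count. The 50 sperm genes summed to 516 and 788 CPM, 4771 CPM and 5081 CPM, and to 36.7 to 359 CPM elsewhere, where 4 to 22 of them had no count. Of 49 tested sperm genes 1 passed in these fits, spe-44, which encodes a transcription factor of the male germline: it rose with aggregate tau on wild type and fell on glycosylase loss in that strain, where 1.51% and 0.984% of all genes passed, so 1 of 49 is a value of that gene and not of the list. The 10 epidermis markers, of which dpy-7 is itself a collagen, summed to 686 and 720 CPM, 1582 CPM and 1600 CPM, and to 223 to 472 CPM elsewhere, of which the spectraplakin gene vab-10 made up 57.4% to 66.4%. The 12 epidermal regulators had lower sums in the same libraries, with 493 and 520 CPM, 526 CPM and 446 CPM against 543 to 821 CPM elsewhere. The gene lin-41 alone made up 47.5% to 67.8% of that sum. In the fits 8 of these 12 were positive for aggregate tau on wild type (median log2 fold change 0.63) and 8 for nth-1 over wild type (0.81). Most genes of that list thus did not share the lower sum. The 14 oocyte and eggshell genes were lower in the 4 libraries, with 9255 and 9008 CPM, 7333 CPM and 5841 CPM, against 11560 to 15970 CPM elsewhere. The 8 intestine genes overlapped, with 2812 and 2836 CPM, 4504 CPM and 4869 CPM against 1273 to 4558 CPM elsewhere. So did the 6 vitellogenins, the yolk protein genes of the intestine, with 48310 to 49790 CPM in the 4 libraries inside the range of 40300 to 148100 CPM elsewhere, and the 16 germline genes, with 3207 to 4113 CPM against 3799 to 5767 CPM. The 11 neuron genes summed to 279.2 to 364 CPM in the 4 libraries and to 189.8 to 278.3 CPM elsewhere, so their groups nearly touched. Of the intestine sum asp-1 made up 55.7% to 79.6%, and of the neuron sum snb-1 made up 32.5% to 67.7%. In the fits for aggregate tau on wild type and for nth-1 all 8 intestine genes were positive (medians 0.77 and 0.83). Of the 11 neuron genes 10 and 9 were positive (1.34 and 1.45). The 22 moulting genes overlapped, at 188 to 209 CPM and 107 to 195 CPM. Of that sum nhr-23 made up 15.9% to 44.9%. In the same 2 fits 18 and 19 of 21 tested moulting genes were positive (medians 1.61 and 0.58). Of all genes 60.6% and 56.5% were positive in these fits (medians 0.46 and 0.17). The overlap of these 3 sums is thus not that of most of their genes. The part of stage, of tissue mixture or of germline content in the collagen levels was not tested.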

How the data were processed

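RNA of whole worms was sequenced in 12 libraries, grouped by their labels for genotype and temperature. At 20 °C the titles of 3 nth-1 libraries say ung-1, and the genotype label was followed. The deposited values are whole-number read counts per gene. Reads were aligned with HISAT2 to WBcel235 and edgeR 3.22.5 was used, per the submitters' processing notes; the counter, its strand setting, its treatment of multiply mapped reads and its gene models: not given in the sources used here. Of 46589 identifiers 46183 matched the Ensembl annotation of that build, from which names, coordinates and protein lengths were taken. No sequence is printed.

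Counts were tested over all genes with edgeR 4.0.16 in R 4.3.3 (quasi-likelihood test, TMM, default filter on low counts, 15245 genes, Benjamini-Hochberg adjusted p under 0.05). An additive fit of background and tau state had 6 residual degrees of freedom, and a fit with glycosylase loss by tau state had 4. With 1 library per group, the p-values measure spread from background by tau differences and from library noise. The SE is the size of the log2 fold change divided by the square root of F. Levels are counts per 1000000 (CPM) after TMM scaling, and ratios of single libraries add a prior count of 2. The test was tried on simulated counts first. Alternatives were RLE factors, total counts, TMM factors without the members, no filter, a stricter filter (1 CPM in 6 libraries), DESeq2 1.42.0, limma 3.58.1 voom and leaving out each library.

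Members were named by level per kb, by fit (the 3 smallest p where none passed), by lowest and highest correlation with the family, by position opposite to the family in single pairs, and for known roles. A further rule, proteins at least 95% identical, was not applied, as no protein sequences were used here. Genes outside these rules (col-39, col-12, col-62, col-96, col-141, col-142, col-42, col-103, col-8 and those called with a library left out) were chosen after their values were seen. The unadjusted counts without the library labelled anti-aggregate nth-1 and the body-shape sum without col-19 were added after the data were seen. The members and lists were chosen with earlier results of these data known.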

Additional observations from a re-analysis of the deposited data

Results flagged for a closer look

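In 6 comparisons the family median went opposite ways under the same contrast, with 1 library on each side of each ratio, and none of these differences was tested for the family. For aggregate tau over no tau the median log2 ratio of 93 members was -0.37 in ung-1 and 0.3 in nth-1. For anti-aggregate tau over no tau it was 0.98 on wild type at 22 °C and -0.65 at 20 °C, and 0.04 in ung-1 and -4.35 in the library labelled anti-aggregate nth-1. The 0.04 became -0.01 with total counts and -0.15 over members with a mean of at least 5 CPM, so in that comparison the signs were not opposite under those settings. For mutant over wild type it was -2.56 (ung-1) and 1.52 (nth-1) with aggregate tau, and -0.19 (ung-1) and 0.99 (the library labelled anti-aggregate nth-1) with anti-aggregate tau. For 22 °C over 20 °C it was -0.86 without tau and -1.17 with aggregate tau, and 1.16 with anti-aggregate tau.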

How the results depend on the processing

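No paired analysis was possible because each combination has 1 library and the labels give no replicate numbers; background is already a term of each fit. Of 292 values under alternatives 258 were counted as the same, 23 gained calls, 9 moved and 2 reversed. For the fits, each with 0 members called by the main setting, the same meant 0 called again, and direction was not compared. For the family medians it meant no change of sign and a shift smaller than the typical counting error of a member's ratio. The cause of the changes was not tested. With edgeR 0 members passed in all 10 comparisons. DESeq2 called 21 for aggregate over anti-aggregate tau, 53 for nth-1 over wild type, 41 for aggregate tau on wild type, 3 for glycosylase loss within the aggregate strain and 14 for the interaction, and limma voom 12, 13 and 2 for nth-1, aggregate tau on wild type and glycosylase loss. Total counts gave 1 lower (col-95), 1 higher (col-119) and 2 lower (col-101 and col-143) for these 3. These were 0.862%, 0.862% and 1.72% of members, against 8.06%, 2.3% and 2.07% of genes. A stricter filter gave 1 lower for nth-1 (col-95) and 1 lower for glycosylase loss (col-101), each 1.69% of members, against 8.89% and 2.72% of genes. No filter gave 1 higher for aggregate tau on wild type (col-119), 0.662% of members against 1.21% of genes. In each of these the share of members was below that of genes. Leaving out 1 library gave 0 to 54 for nth-1, 0 to 81 for aggregate tau on wild type, 0 to 2 for glycosylase loss, 0 to 8 for the interaction and 0 to 0 for the other 6. Without aggregate ung-1 12 of 116 members (10.3%) passed for nth-1, near the 10.1% of genes. Of these 11 were higher and 1 lower, against 3.98% and 6.12% of genes. The same fit gave 1 higher (col-42, 0.862% of members) for aggregate tau on wild type, against 0.52% of genes.

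Among 17 family medians, that of anti-aggregate ung-1 over ung-1 (0.04) became -0.01 with total counts and -0.15 over members with a mean of at least 5 CPM. That filter gave -3.84 for the library labelled anti-aggregate nth-1 over nth-1 and 1.85 for nth-1 over wild type with aggregate tau. With no filter on level, which adds members near 0 counts, medians were 1.77 and 2.12 for aggregate tau on wild type at 22 °C and 20 °C, 2.67 for nth-1 over wild type and 1.02 with aggregate tau. They were -2.26 for the library labelled anti-aggregate nth-1 over nth-1, -1.69 for ung-1 over wild type with aggregate tau and -0.63 for 22 °C over 20 °C with aggregate tau. Total counts in place of TMM shifted the median of all genes by -0.29 to 0.21, over 0.1 in 5 of the 17 pairs, RLE by -0.09 to 0.05. Depth limits the 62 members below a mean of 1 CPM, and with no replicates the spread between cultures of a strain was not measured.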
